A study of Drosophila melanogaster with 4 samples.

Results

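H15 and mid (midline) are neighbouring T-box genes at cytological band 25E of chromosome arm 2L in Drosophila melanogaster. Their surroundings were taken as the FlyBase release 5 window from 5.37 to 5.495 Mb on 2L (125001 bp), with 200 kb on each side as flanks. The members are the deposited H3K27me2 regions that overlap this window. They numbered 1 of 12968 regions in ChIP replicate 1, 0 of 11483 in ChIP replicate 2 and 2 of 17184 in the combined list, which the authors made from the replicate set as a whole. The window was chosen with this coverage known, so the covered shares below describe the locus and are not tested.

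The data are ChIP-seq, in which chromatin fragments bound by an antibody (here Ab24684, against H3K27me2) are sequenced. The material was whole wild-type Oregon-R embryos, an unmutated laboratory strain, aged 14 to 16 h. The series holds 2 ChIP samples and 2 input samples, all of the same strain, genotype and stage, with no treatment or mutant. Region lists of the inputs were not analysed here. Separate embryo collections are not stated for the ChIP samples, so their spread may be technical. The lists give positions and an authors' score but no read counts, so the sequencing depth is unknown. Sequence outside the regions is termed uncalled, which does not mean free of the mark.

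T-box proteins are transcription factors that bind DNA through a conserved domain, and H15 and mid encode the fly relatives of the vertebrate heart factor Tbx20. Both act in the embryonic heart, the ventral epidermis and the central nervous system, partly in place of each other. Methyl groups on lysine 27 of histone H3 are placed by Polycomb repressive complex 2 (PRC2). The dimethylated form is spread widely over chromatin, whereas the trimethylated form marks the domains in which Polycomb proteins keep developmental genes silent. The trimethylated form was not analysed here, and whole embryos mix cells in which the pair is active with cells in which it is silent.

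The gene table of the reference is of release 6 and was used only for names and order. In that order H15 (gene ID 33769, locus tag CG6604) and mid (gene ID 33770, locus tag CG6634) are consecutive protein-coding genes. The next coding genes are nompC, which encodes a mechanosensory channel, on the H15 side, and CG14020 on the mid side. Between H15 and mid the table lists 4 long non-coding RNA genes and 1 small nucleolar RNA gene. Another 2 long non-coding RNA genes lie between nompC and H15, and 1 lies between mid and CG14020. Lower coordinates lie on the nompC side. The choice of the window places both genes within it. Where each gene starts and ends on release 5 was not analysed here, so regions were not assigned to exons, introns or promoters.

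H3K27me2 was almost uncalled over H15 and mid, while the sequence on both sides carried many regions. In the window, regions covered 1.09% of the sequence in replicate 1 and 0% in replicate 2, and 3.08% in the authors' combined list. In the flanks they covered 38.4% in replicate 1 and 26.4% in replicate 2, and 54.2% in the combined list. Each list therefore put the window far below its flanks, and the window values of all 3 lists lay below the flank values of all 3. The combined list was made from the same replicate set, so it is not independent of the replicate lists. As a mean of the replicates, the window had 0.547% ± 0.773 covered, the flanks 32.4% ± 8.48, and the rest of 2L 24.9% ± 4.20 (SD, n = 2 for each). Window minus flanks was -31.9 ± 7.71 percentage points (SD, n = 2), with -37.3 in replicate 1 and -26.4 in replicate 2. No test was run, because the locus was chosen on this measure.

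**Figure D1:**
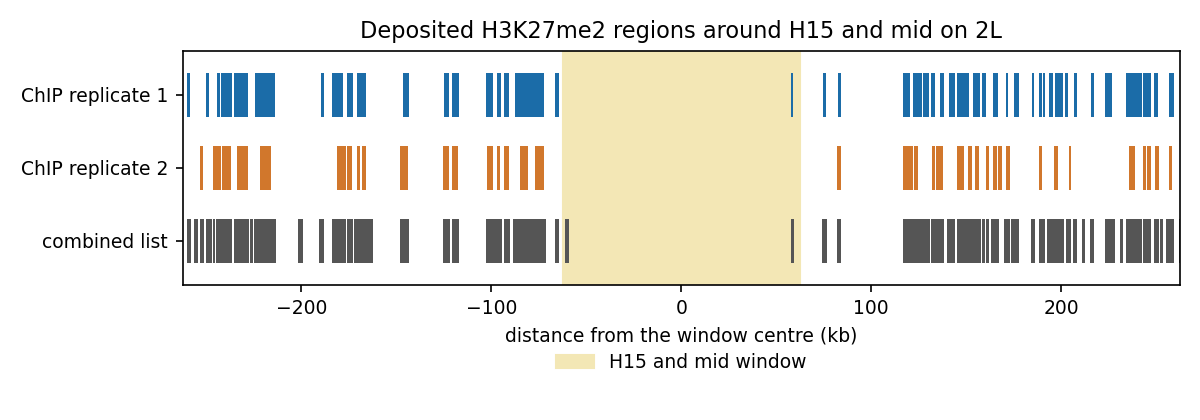
Positions of the deposited H3K27me2 regions as bars in ChIP replicate 1, ChIP replicate 2 and the combined list, by distance from the centre of the H15 and mid window in kb, with the window shaded. The window holds 1 region in replicate 1, none in replicate 2 and 2 in the combined list, all near its borders.

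Finer steps show where within the window the few called bases lie. Of the 25 bins of 5 kb that fit in the window, 1 held any part of a region in replicate 1 and 0 did in replicate 2, and 2 did in the combined list. Over all 4601 such bins of 2L the share with a region was 57.2% in replicate 1 and 49.7% in replicate 2, and 74.5% in the combined list. In the flanks, 59 of 80 bins held a region in replicate 1 and 49 did in replicate 2, and 64 did in the combined list. Since the locus was chosen for its coverage, nothing further is read from these shares. In steps of 25 kb, the 3 central steps of the window had 0% covered in each list. The steps next to the window were unequal. The one on the nompC side had 67.9% covered in replicate 1 and 35.9% in replicate 2. The one on the CG14020 side had 15.2% covered in replicate 1 and 8.00% in replicate 2.

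**Figure D2:**
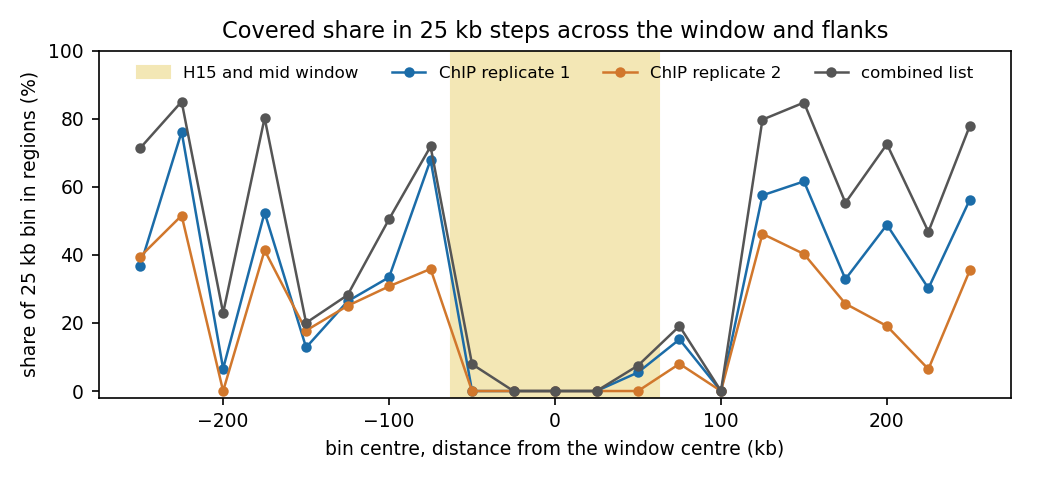
Share of each 25 kb bin in regions (percent) against the distance of the bin centre from the window centre in kb, 1 line per list, with the H15 and mid window shaded. All 3 lines are at 0% in the 3 central bins, and they are also at 0% in the bin centred 100 kb to the right.

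The few members lay at the borders and had low scores. The combined list had a region of 1973 bp on 2L from 5371446 to 5373418, which starts 1446 bp inside the window on the nompC side. Its score of 0.354 stood at percentile 20.0 of that list, and neither replicate had a region there. The other combined region spanned 1871 bp from 5490060 to 5491930 and ended 3070 bp before the window's far border, on the mid side. Its score of 0.353 stood at percentile 19.4, and replicate 1 covered 73.1% of its length whereas replicate 2 covered 0%. The single region of replicate 1 was the one inside it, 1367 bp from 5490237 to 5491603, with a score of 0.431 at percentile 9.84 of its own list. By width it ranked 2219 of the 2347 regions of replicate 1 on 2L. The score scale is not named in the headers, so scores of different lists are not set against each other.

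No sequence in the window was called in both replicates. The Jaccard index, which is the part of all called bases that both replicates called, was 0 in the window, where the replicates together covered 1.37 kb. It was 0.494 in the flanks and 0.493 in the rest of 2L. Of the 2 combined regions in the window, 0 overlapped both replicates. Over the whole combined list 41.1% did, and in the flanks 26 of 62 did. Replicate 2 had no region in the window, and both combined regions lie wholly inside it. The index of 0 and the overlap of 0 were thus fixed in advance and do not measure how well the replicates match there. The window also held only 2 combined regions and 1 replicate region.

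The uncalled stretch that runs through the window was long. In replicate 1 it spanned 122211 bp from 5368026 to 5490236, or 96.2% of the window. In replicate 2 it spanned 154389 bp from 5360347 to 5514735 and took in the whole window. Its mean length was 138.3 kb ± 22.8 (SD, n = 2), against a median of 2921 bp for all uncalled stretches of 2L in replicate 1 and 3636 bp in replicate 2. With all 3 lists laid over each other, 116641 bp from 5373419 to 5490059 remained without any region, which is 93.3% of the window. The other uncalled parts of the window in that overlay were its first 1446 bp and its last 3070 bp, each the tip of a stretch that goes on outside it.

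Between the replicates the borders of the stretch moved by different amounts. On the nompC side, uncalled sequence began 7.68 kb further out in replicate 2. On the CG14020 side it ended 24.5 kb further out in replicate 2. The regions that made the difference were narrow ones of replicate 1 with no overlap in replicate 2. One spanned 1828 bp from 5366198 to 5368025, at score percentile 12.6. The others were the region at 5490237 described above and 1914 bp from 5507047 to 5508960, at percentile 34.1. The first positions outside the window called in both replicates belong, on the nompC side, to the region of replicate 1 from 5349777 to 5360450 and that of replicate 2 from 5355472 to 5360346. These end close to each other. On the CG14020 side they belong to the region of replicate 1 from 5514909 to 5516791 and that of replicate 2 from 5514736 to 5516736. Counted over sequence called in both replicates, the stretch was 154.6 kb long, from 5360347 to 5514908.

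Among the uncalled stretches of 2L, the one at H15 and mid ranked 2 of 3146 in length in the overlay of all lists. It ranked 3 of 2347 in replicate 1 and 3 of 2028 in replicate 2. Counted over sequence called in both replicates, it ranked 8 of 1850. Over the 5 major arms (X, 2L, 2R, 3L and 3R) it ranked 8 of 15264 in the overlay, 19 of 12215 in replicate 1 and 10 of 10927 in replicate 2. Arm 2L had 16 stretches of at least 50 kb without a region in any list, and 3 of these reached 100 kb. The other 2 of that length ran from 21415229 to 21545851 and from 10197813 to 10300234.

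All windows of the same length on 2L were then taken at steps of 1 kb, which gave 22887 windows that overlap each other. In replicate 1, 0.559% of them had a lower covered share than the H15 and mid window. In replicate 2 none could be lower than 0%, and 0.734% were also at 0%. In the combined list 0.402% were lower. Windows at or below the share of the H15 and mid window fell in 4 places in replicate 1 and 6 in replicate 2, and in 3 places in the combined list. Single windows that were this low in all 3 lists at once fell in 2 places. One was H15 and mid, with 14 windows between 5369001 and 5507001, and the other had 38 windows between 21416001 and 21578001. By the mean of the replicates, the lowest windows of 2L that do not overlap each other were at 21416001 (0%) and 16240001 (0.53% ± 0.75), followed by a tie at 0.547% ± 0.773 (SD, n = 2). The tie was between windows starting at 5369001 to 5382001, around H15 and mid, and windows starting at 10302001 to 10322001. The tied windows and the window at 16240001 differed by less than the spread between replicates. The highest windows started at 872001, with 62.6% ± 2.59, at 6296001, with 60.01% ± 0.91, and at 604001, with 59.0% ± 6.59 (SD, n = 2).

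**Figure D3:**
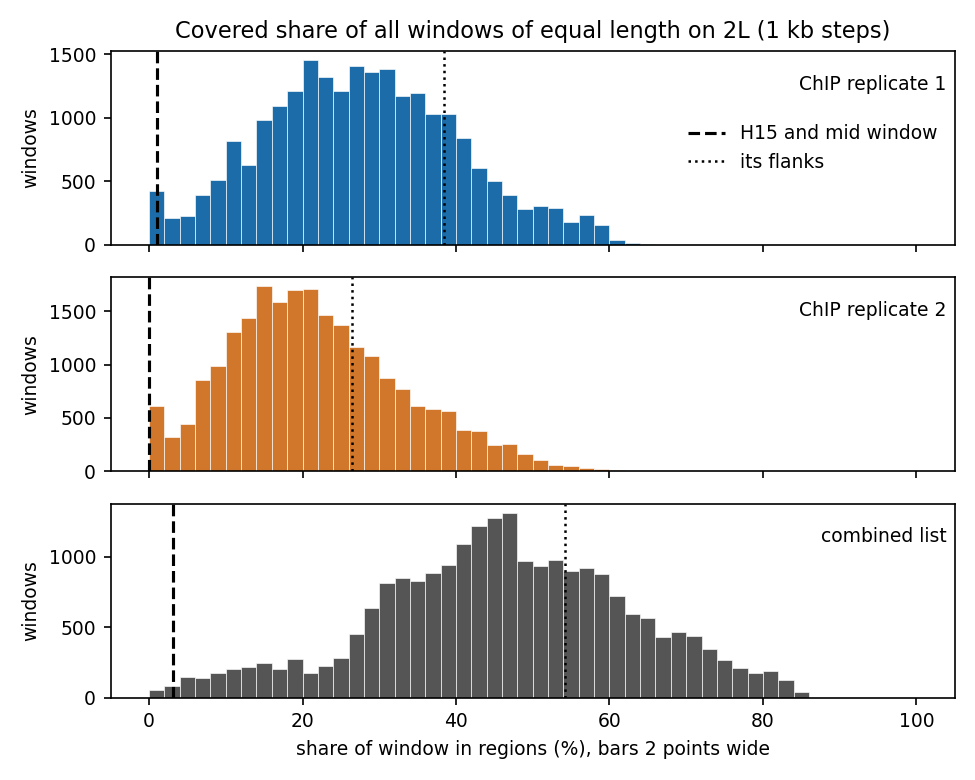
Number of windows on 2L of the same length (125001 bp) by covered share (percent, bars 2 points wide), 1 panel per list, with the H15 and mid window as a dashed line and its flanks as a dotted line. The dashed line stands at 1.09%, 0% and 3.08%, in the lowest 1% of windows in each list, and the dotted line at 38.4%, 26.4% and 54.2%.

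The flanks were not sparse themselves. On the nompC side, the 200 kb flank had 39.1% covered in replicate 1 and 30.2% in replicate 2, in 23 and 18 regions. On the CG14020 side, the flank had 37.8% covered in replicate 1 and 22.6% in replicate 2, in 30 and 22 regions. In the rest of 2L the shares were 27.8% in replicate 1 and 21.9% in replicate 2. Both flanks were thus above the rest of the arm in each replicate, although on the CG14020 side replicate 2 exceeded it by less than 1 percentage point. The Jaccard index was 0.617 in the flank on the nompC side and 0.374 in the one on the CG14020 side. Median score percentiles within the list were 54.6 in replicate 1 and 59.6 in replicate 2 on the nompC side. On the CG14020 side they were 34.6 in replicate 1 and 38.8 in replicate 2.

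**Figure D4:**
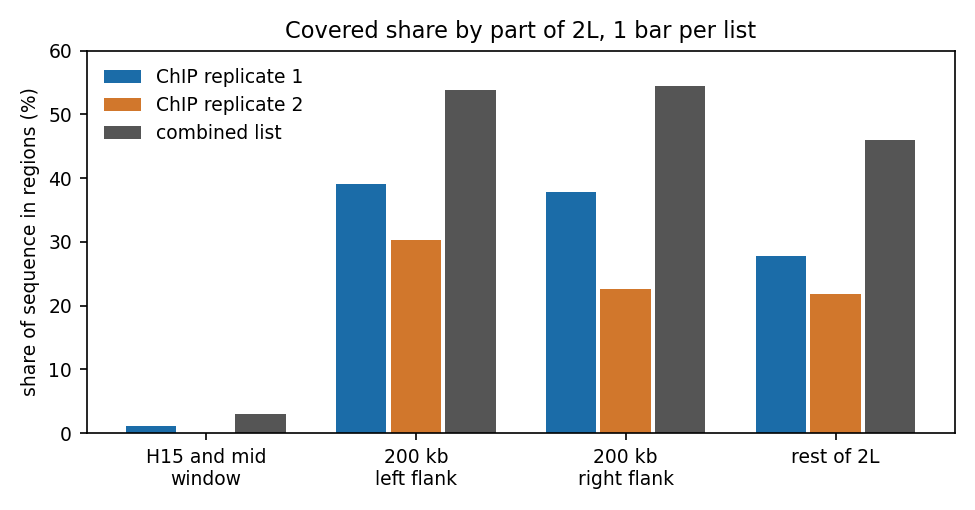
Share of sequence in H3K27me2 regions (percent) in the H15 and mid window, its left flank (nompC side), its right flank (CG14020 side) and the rest of 2L, 1 bar per list, without error bars. The window bars are at 1.09%, 0% and 3.08%, and every other bar is at 21.9% or more.

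Wide regions stood on both sides in the combined list. On the nompC side, the combined list had a region of 17051 bp from 5344152 to 5361202, which ended 8798 bp before the window. It ranked 22 of 3202 regions of that list on 2L by width, and its score stood at percentile 89.2 of the list. Replicate 1 covered 89.4% of it and replicate 2 covered 52.6%. Within it, replicate 1 had a region of 10674 bp from 5349777 to 5360450, which ranked 12 of 2347 in width. On the CG14020 side, a combined region of 13965 bp ran from 5549372 to 5563336 and began 54372 bp after the window. It ranked 47 of 3202 in width, with 79.4% covered in replicate 1 and 48.7% in replicate 2. These were the nearest regions of at least 10 kb on either side, a width chosen after the values were seen. In the 188.2 kb between them the combined list had 5 regions, none wider than 2519 bp, and 5.52% of the sequence was covered. In replicate 1 that sequence had 4 regions and 3.72% covered, and in replicate 2 it had 1 region and 1.06% covered. A second uncalled stretch lay there, 32525 bp from 5516847 to 5549371, without a region in any list.

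The sequence around H15 and mid was also set beside the other long uncalled stretches. On the major arms, 13 stretches of at least 100 kb had no region in any list. Within 200 kb on both sides of the H15 and mid stretch, 38.0% was covered in replicate 1 and 26.2% in replicate 2, for a mean of 32.1% ± 8.34 (SD, n = 2). This was the second highest of the 13, whose means ran from 2.33% to 32.8% with a median of 20.3%. The highest, on 3R, differed from the H15 and mid stretch by less than the spread between replicates. Some of the 13 had another uncalled stretch of at least 50 kb inside their surround, which lowers their share by construction. The surround of H15 and mid held none of that length. For example, the stretch on 3R at 12480751 had 0.344% covered on its right, where a stretch of 188.6 kb began at 12615545. The rank and the median therefore partly reflect how close long uncalled stretches lie to each other. For the other 2 stretches of that length on 2L, the mean was 21.8% ± 3.31 around the one at 10197813 and 15.6% ± 1.71 around the one at 21415229. The one at 10197813 had a mean of 37.6% on its left and 5.99% on its right. Its right side holds another uncalled stretch, 72.9 kb from 10372377. The H15 and mid stretch had 34.4% on its left and 29.9% on its right. Among all 107 stretches of at least 50 kb the H15 and mid stretch ranked 21. Among these 107 its rank was lower with closer surrounds. Within 50 kb the mean was 24.6% ± 8.37 and the rank 48 of 107, and 2 of the 13 longest. Within 20 kb the mean was 21.3% ± 12.8 (SD, n = 2), with rank 66 of 107, below the median of 25.8%, and rank 6 of 13. Within 50 kb the sides differed, with a mean of 42.0% covered on the nompC side and 7.17% on the CG14020 side.

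**Figure D5:**
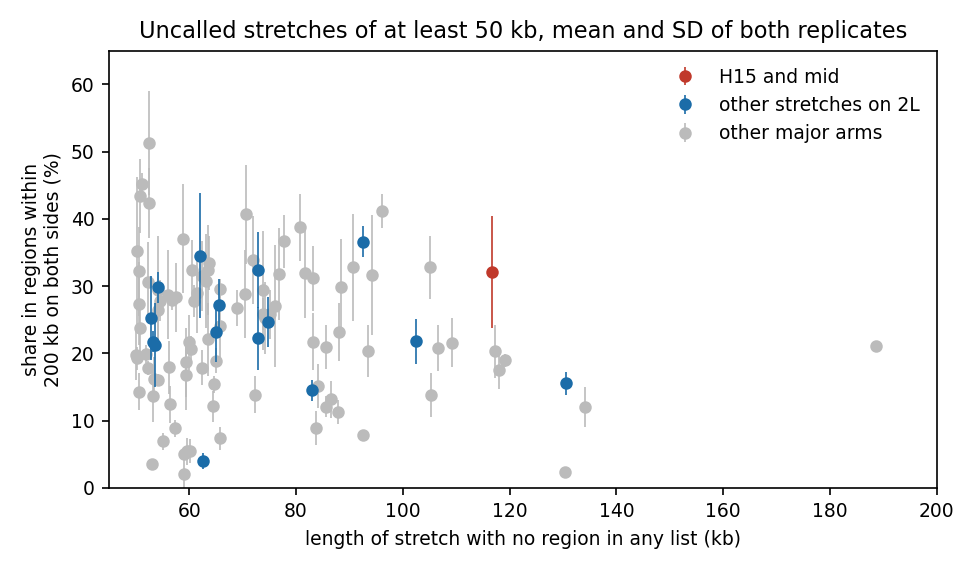
Length of each stretch of at least 50 kb without a region in any list (kb) against the share of sequence in regions within 200 kb on both sides (percent), for the 107 such stretches of the major arms; points are means of both replicates and bars are SD (n = 2). The H15 and mid stretch, at 116.6 kb and 32.1%, lies above all but 1 of the 13 stretches of at least 100 kb. Some of these 13 have another plotted stretch within their 200 kb, which lowers their share.

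Bases that are unsequenced or repeated count in the lengths above, and how repeats were mapped is not stated in the labels or file headers. An uncalled stretch therefore cannot be told apart, in these lists, from sequence that reads could not reach, nor from a mark too low to pass the authors' threshold.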

How the data were processed

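The authors deposited 3 lists of significantly enriched regions, 1 per ChIP sample and 1 for the replicate set, with a score per region. Coordinates are FlyBase release 5, per the file headers. The submitters' processing notes list Bowtie 0.12.7; how regions were called and replicates pooled is not stated in the labels or headers. Fixation was in 1.8% formaldehyde and antibody incubation took 15 h, per the labels' protocols. The deposited score was used only as a percentile within its list. Depth is unknown.

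Covered share is the union of regions over sequence length, and overlap means at least 1 bp. The window, members and genes were chosen with earlier results of these data known. Regions named are all combined regions in the window, the widest, highest-scoring and single-replicate regions of each replicate there, the 3 longest uncalled stretches and the 3 highest windows of 2L; others, and the comparisons of stretches, were chosen after values were seen. No test was run, since the choice of window used this measure and 2 replicates are too few. The planned comparison of T-box proteins was not run, because no protein sequence was used here. Python 3.11.15, numpy 2.4.6 and matplotlib 3.10.9 were used, and the code for intervals was tested on simulated data.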

Additional observations from a re-analysis of the deposited data

How the results depend on the processing

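The covered share of the H15 and mid window stayed below the flanks in every alternative run. Every alternative used regions of the same 2 ChIP samples, and the window was chosen with its low coverage known. The constant sign is therefore not an independent check, and only the size of the difference is described here. Window minus flanks, -31.9 percentage points, was -20.8 when regions scoring below the median of their list were dropped, which removes flank coverage by construction, and -51.1 in the combined list, which covers more sequence. Leaving out each replicate gave -37.3 to -26.4. Merging, equal numbers of top-scoring regions, 100 kb flanks, the rest of 2L and a window trimmed by 10 kb on each side moved it by less than the spread between replicates. The percentile among 2L windows, 0.28 as the mean of the replicates, lay between 0 and 0.559 in all alternatives, with replicate 1 alone as the upper bound. It counts only windows with a lower share, so it is 0 by construction wherever the window has 0% covered. That was so for replicate 2 alone, the median-score threshold, equal numbers of top-scoring regions and the trimmed window. These zeros, and the mean that includes 1 of them, therefore do not show stability. With ties counted, 0.948% of windows were at or below the window's share in replicate 1 and 0.734% in replicate 2. The mean length of the uncalled stretch, 138.3 kb, was 122.2 to 154.4 kb with a replicate left out; without regions scoring below the median, an alternative chosen after seeing the data, it was 205.6 kb, since that removes bordering regions. At that threshold no list had a region in the window. The score percentile of the window's regions, 9.84 from replicate 1 alone, was 19.7 in the combined list, which has 2 regions there; replicate 2 has none and gives no value. At the median-score threshold the Jaccard index, the overlap of combined regions with both replicates and the score percentile had no value, nor had the Jaccard index with equal numbers of top-scoring regions. No paired analysis was possible because only the ChIP samples have regions. Read counts were not analysed here, so how depth bears on the uncalled sequence is unknown.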
